A study of Mus musculus with 30 samples.

Results

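Gene expression in the quadriceps, the large muscle at the front of the thigh, was compared between 10 mice that had eaten a high fat (HF) diet for 56 days and 10 mice killed at the start of that diet period, 20 of the 30 arrays of the series. The members are the arrays whose titles name muscle, HF and d56 and those that name muscle, LF and d0. All mice were males of the strain that the labels spell C56BL/6J, all ate a standard growth diet, and all were moved at 9 weeks of age to a low fat (LF) run-in diet for 3 weeks. The start group was killed after the run-in, at day 0 and 12 weeks of age. The other mice were assigned at random to LF or HF, and the HF group was killed at day 56 and 20 weeks of age. The 10 remaining arrays hold mice kept on LF to day 56, also 20 weeks old. Each array holds total RNA of 1 mouse. The comparison therefore joins the diet with 56 days of growth and ageing, and within these 20 arrays diet, age and time cannot be told apart.

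Skeletal muscle burns fatty acids and glucose. Fatty acids enter the fibre through membrane carriers, are stored as triglyceride in droplets or cross into mitochondria on carnitine, and are then shortened stepwise by beta-oxidation, with auxiliary enzymes that deal with double bonds. Between the fibres lie a collagen matrix made mainly by fibroblasts, tendon and fascia, vessels, and fat cells, whose RNA is part of any piece of whole muscle. In such bulk RNA, fewer cells of a type and less RNA per cell cannot be told apart.

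Of 16475 gene entries, 262 passed limma at an adjusted p under 0.05, which is 1.59% of those tested. HF day 56 was higher in 129 (0.783%) and lower in 133 (0.807%). Most changes were small: the median size among these 262 was 0.39 on the log2 scale, and 63 (0.382%) reached 1.5-fold, 37 of them higher and 26 lower. In 32 entries (0.194%) every HF day 56 array lay beyond every day 0 array. Rises included 14 genes of mitochondrial fatty acid oxidation, such as Ech1 and Decr1, and the fat cell hormone gene Lep. Falls included collagen genes such as Col1a2, the tendon gene Tnmd, the lipid synthesis gene Scd2 and the thin filament gene Lmod3. Values below are intensities unless called log2 differences, and ± gives the standard error of the limma fit with 10 arrays in each group. Where 2 ranges follow each other, the first is LF day 0 and the second HF day 56.

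**Figure D1:**
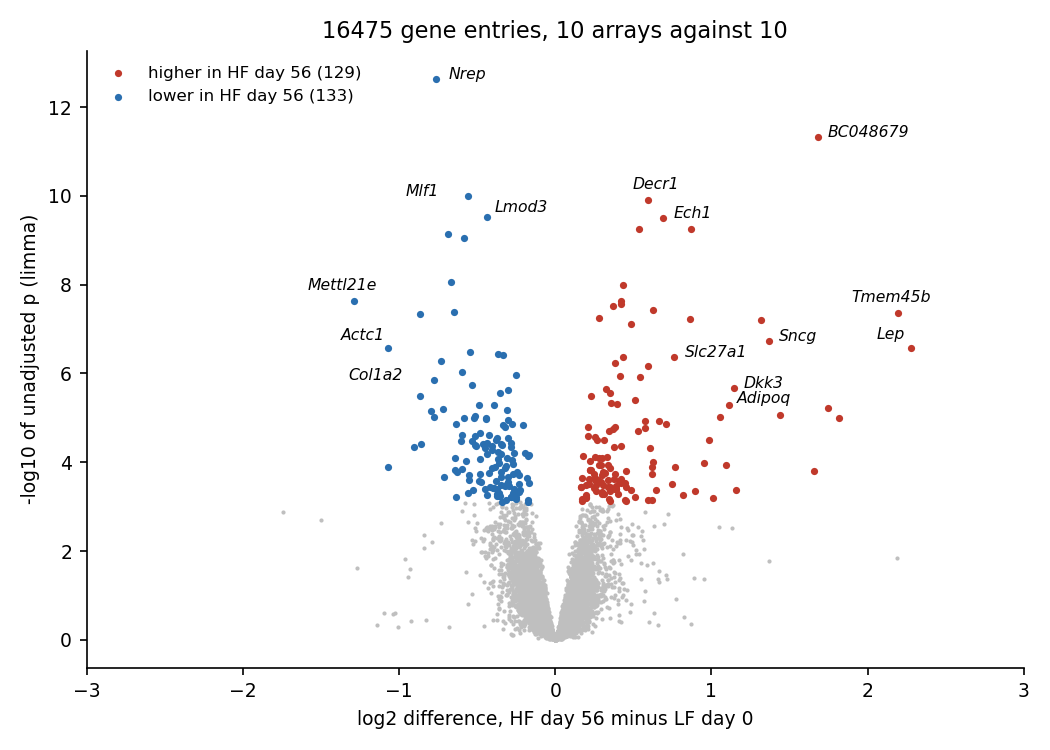
Each point is 1 of 16475 gene entries, with the log2 difference HF day 56 minus LF day 0 on the x axis and -log10 of the unadjusted limma p on the y axis. The 129 entries called higher are red and the 133 called lower are blue; Lep reached 2.28 and Mettl21e -1.29.

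The promoters of 4 genes that stand for the main gene groups are given first, as the 250 bases before the RefSeq start on GRCm38.p6, in the direction of transcription. Ciart stands for the clock genes, Acadm and Hadhb for fatty acid oxidation, and Col1a2 for the collagens. Capitals mark CACGTG (the E-box read by clock proteins) in Ciart, AGGTCA read on the other strand (a motif of many nuclear receptors) in Acadm, and CCAAT in Col1a2; Hadhb has none of the motifs named in this paragraph. The windows are chr3:95882229-95882478 (minus strand) for Ciart, chr3:153944644-153944893 (minus strand) for Acadm, chr5:30155003-30155252 (plus strand) for Hadhb and chr6:4505368-4505617 (plus strand) for Col1a2.
Ciart: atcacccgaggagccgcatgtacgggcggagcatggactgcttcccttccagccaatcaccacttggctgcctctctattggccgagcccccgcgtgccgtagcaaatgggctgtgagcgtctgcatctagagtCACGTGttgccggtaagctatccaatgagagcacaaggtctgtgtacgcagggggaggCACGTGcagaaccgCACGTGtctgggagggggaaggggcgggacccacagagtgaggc
Acadm: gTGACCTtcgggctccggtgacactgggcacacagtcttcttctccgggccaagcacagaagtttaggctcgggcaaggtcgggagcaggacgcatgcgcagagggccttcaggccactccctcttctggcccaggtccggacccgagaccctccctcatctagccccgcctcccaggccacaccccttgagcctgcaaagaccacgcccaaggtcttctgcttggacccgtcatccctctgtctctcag
Hadhb: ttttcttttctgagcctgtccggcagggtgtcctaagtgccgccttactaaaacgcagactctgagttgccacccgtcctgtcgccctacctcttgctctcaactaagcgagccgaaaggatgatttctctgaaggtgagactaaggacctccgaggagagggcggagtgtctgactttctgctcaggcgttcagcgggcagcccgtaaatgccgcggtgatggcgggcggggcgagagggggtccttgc
Col1a2: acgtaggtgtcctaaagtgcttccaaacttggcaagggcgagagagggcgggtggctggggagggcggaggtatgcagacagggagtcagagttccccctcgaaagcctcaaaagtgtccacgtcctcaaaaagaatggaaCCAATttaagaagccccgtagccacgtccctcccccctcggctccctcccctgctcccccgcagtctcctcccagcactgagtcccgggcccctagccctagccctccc
CACGTG was present in 6.02% of 32851 promoters of this length, on either strand, and Ciart held 3 copies. It was found in 1 of the 3 clock genes passing the test that had a promoter entry. AGGTCA was present in 14.0% of all promoters and in 3 of the 13 fatty acid oxidation genes passing the test that had an entry, namely Acadm, Acadvl and Cpt1a. Its direct repeat with 1 free base between the copies was in 0 of these 13 and in 0.0335% of all promoters. CCAAT was in 33.8% of all promoters and also occurs in lower case in Ciart. The D-box, TTATGTAA or TTACGTAA, was in 0 of the 3 clock genes and in 0.931% of all promoters. Hadhb and Hadha lie head to head on opposite strands, with 273 bases between their first transcribed bases. These matches describe letters in a window, and binding at them was not tested.

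The labelled tissue was checked against 10 defining genes of skeletal muscle, such as the actin of the fibre Acta1 and the creatine kinase Ckm. Acta1 had median intensities of 28750 at day 0 and 28870 at HF day 56, 0 of the 10 genes passed the test, and their summed level ran from 104634 to 114837 at day 0 and from 104684 to 115324 at HF day 56. Across the arrays, 6334 to 6563 entries exceeded an intensity of 20. The 30 arrays fell into sets of 21 and 9 by the 5′ signal, relative to the 3′ signal, of the spiked-in dap and thr control RNAs. They held 7 and 3 arrays of each group. S100a8, a granulocyte gene, exceeded 100 on 7 day 0 arrays and 6 HF day 56 arrays. It also did so on replicates 3, 4, 8 and 9 of LF day 56. With all arrays above 100 left out, the fit kept 3 day 0 and 4 HF day 56 arrays beside the other LF day 56 arrays. In that fit 6 entries passed limma, of which 4 were among the 262, and 1227 had an unadjusted p under 0.05. Within the 21 arrays 134 entries passed, 79 higher and 55 lower. Within the 9 arrays 0 passed in limma and 1323 had an unadjusted p under 0.05.

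Mitochondrial fatty acid oxidation had the highest share of called members among the 41 gene lists. Of 23 measured genes, 14 rose and 1 fell, a share of 65.2% against 1.59% over all entries, and the median difference of the 23 was 0.33, against 0.00 over all entries. The mean log2 intensity of the list ran from 9.60 to 9.92 at day 0 and from 9.84 to 10.2 at HF day 56, and all 10 HF day 56 arrays exceeded the day 0 mean. Leaving out any 1 array gave 14 to 16 called members. The median within the set of 21 arrays was 0.33 and within the set of 9 it was 0.30. On the arrays with S100a8 not above 100, 0 members passed; their list means were 9.69 to 9.79 (n = 3) at day 0 and 9.84 to 10.01 (n = 4) at HF day 56, and the median difference was 0.20.

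Both carnitine steps at the inner mitochondrial membrane rose. Slc25a20, the carrier that exchanges acylcarnitine for carnitine, ran from 655 to 894 (median 743) at day 0 and from 822 to 1234 (median 1002) at HF day 56, and rose by a log2 difference of 0.39 ± 0.07, adjusted p = 0.00159. Cpt2, which moves the acyl group back to coenzyme A, ran from 744 to 1007 (median 843) and from 896 to 1369.7 (median 1080), a rise of 0.38 ± 0.07, adjusted p = 0.0034. In both genes 7 of 10 HF day 56 arrays exceeded every day 0 array. Cpt1b, the muscle form of the outer membrane enzyme that starts carnitine transfer, did not pass (0.31 ± 0.09, adjusted p = 0.111, 95% interval 0.12 to 0.50). It passed when replicate 3 of HF day 56 was left out, with a difference of 0.35 and an adjusted p of 0.0476. Cpt1a, the form known from liver, fell by 0.27 on the log2 scale (SE 0.06, adjusted p = 0.00885) near the background, from a median of 20.6 to 17.1. Its intensity exceeded 20 on 7 day 0 arrays and 0 HF day 56 arrays.

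The first step of beta-oxidation is made by acyl-CoA dehydrogenases that differ in the chain length they accept. Acadm, for medium chains, ran from 1944 to 2526 (median 2146) at day 0 and from 2538 to 3125 (median 2762) at HF day 56. The groups did not overlap, and the rise was 1.29-fold (0.37 ± 0.05, adjusted p = 3.09e-05). Acadl, for long chains, rose by 0.38 ± 0.06, adjusted p = 0.000275, with medians of 2895 and 3600 and 9 of 10 HF day 56 arrays above every day 0 array. Acadvl, for very long chains, rose by 0.30 ± 0.07, adjusted p = 0.0104, with overlapping groups. Acads, for short chains, a gene named after its values were seen, had a difference of 0.41 and did not pass (adjusted p = 0.505).

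The trifunctional protein, which carries out the later steps on long chains, has the subunits Hadha and Hadhb. Hadha ran from 1227 to 1773 (median 1531) and from 1606 to 2502 (median 1868) and rose by 0.37 ± 0.07, adjusted p = 0.0037. Hadhb ran from 4834 to 5604 (median 5121) and from 5416 to 6416 (median 5977) and rose by 0.23 ± 0.05, adjusted p = 0.0164. Ranges overlapped for both, with 8 and 9 HF day 56 arrays above every day 0 array. Acaa2, the thiolase that releases acetyl-CoA, rose by 0.38 ± 0.09, adjusted p = 0.0185, and Etfdh, which passes the electrons on to ubiquinone, rose by 0.33 ± 0.06, adjusted p = 0.000877. Etfa and Etfb, the subunits of the flavoprotein that feeds Etfdh, had differences of 0.14 and 0.19 and did not pass, nor did Hadh (0.16), Echs1 (0.04), Crat (0.17) or Hsd17b10 (-0.03); these 6 were named after their values were seen.

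The steepest rises of the pathway were those of Ech1 and Decr1, auxiliary enzymes for unsaturated fatty acids. Ech1, a dienoyl-CoA isomerase, ran from 2438 to 3397 (median 3010) at day 0 and from 3854 to 6389.9 (median 4770) at HF day 56. No arrays overlapped, and the rise was 1.61-fold (0.69 ± 0.08, adjusted p = 8.42e-07). Decr1, the dienoyl-CoA reductase, ran from 519.9 to 657 (median 623) and from 798 to 1148 (median 856). Again the lowest HF day 56 array lay above the highest day 0 array, with a rise of 1.51-fold (0.59 ± 0.06, adjusted p = 5.05e-07). The enoyl-CoA isomerases moved less: Eci1 rose by 0.36 ± 0.06, adjusted p = 0.00155, and Eci2 by 0.28 ± 0.04, adjusted p = 4.48e-05, each with 9 of 10 HF day 56 arrays above every day 0 array. Acot2, a mitochondrial thioesterase, rose by 0.39 ± 0.10, adjusted p = 0.0306, but no longer passed when replicate 1, 2, 3 or 4 of day 0 or replicate 1, 2, 4, 7 or 10 of HF day 56 was left out (adjusted p up to 0.0693).

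The increments were compared with those of mice that stayed on LF to day 56. The time step (LF day 56 minus LF day 0) and the diet step (HF day 56 minus LF day 56) add up to the whole change and share the LF day 56 arrays, so they are given side by side. For Decr1 the time step was 0.22 and the diet step 0.38; for Ech1 they were 0.28 and 0.41; for Eci2 they were 0.07 and 0.21. The test of the diet step is the test of whether the change from day 0 differed between diets. It passed for these 3 genes, with adjusted p of 0.00954, 0.0383 and 0.0383, and for BC048679, out of 16475 entries (0.0243%), while 841 had an unadjusted p under 0.05. Each of the 30 arrays was then left out in turn. BC048679 and Decr1 passed all 30 times, Ech1 15 times and Eci2 11 times. The Ech1 diet step did not pass when replicate 5, 6 or 8 of day 0 or replicate 1, 2, 3, 5, 6, 7, 9 or 10 of the LF mice at day 56 or replicate 2, 4, 6 or 8 of HF day 56 was left out (adjusted p up to 0.109), and that of Eci2 did not pass when replicate 4, 5, 6, 7 or 8 of day 0 or replicate 1, 2, 3, 4, 5, 6, 7, 9 or 10 of the LF mice at day 56 or replicate 2, 4, 6, 8 or 10 of HF day 56 was left out (adjusted p up to 0.109). For the whole list the medians were 0.12 for time and 0.18 for diet. In the time step 140 entries passed (0.85%), Acadm among them at 0.23 (adjusted p = 0.0142).

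**Figure D2:**
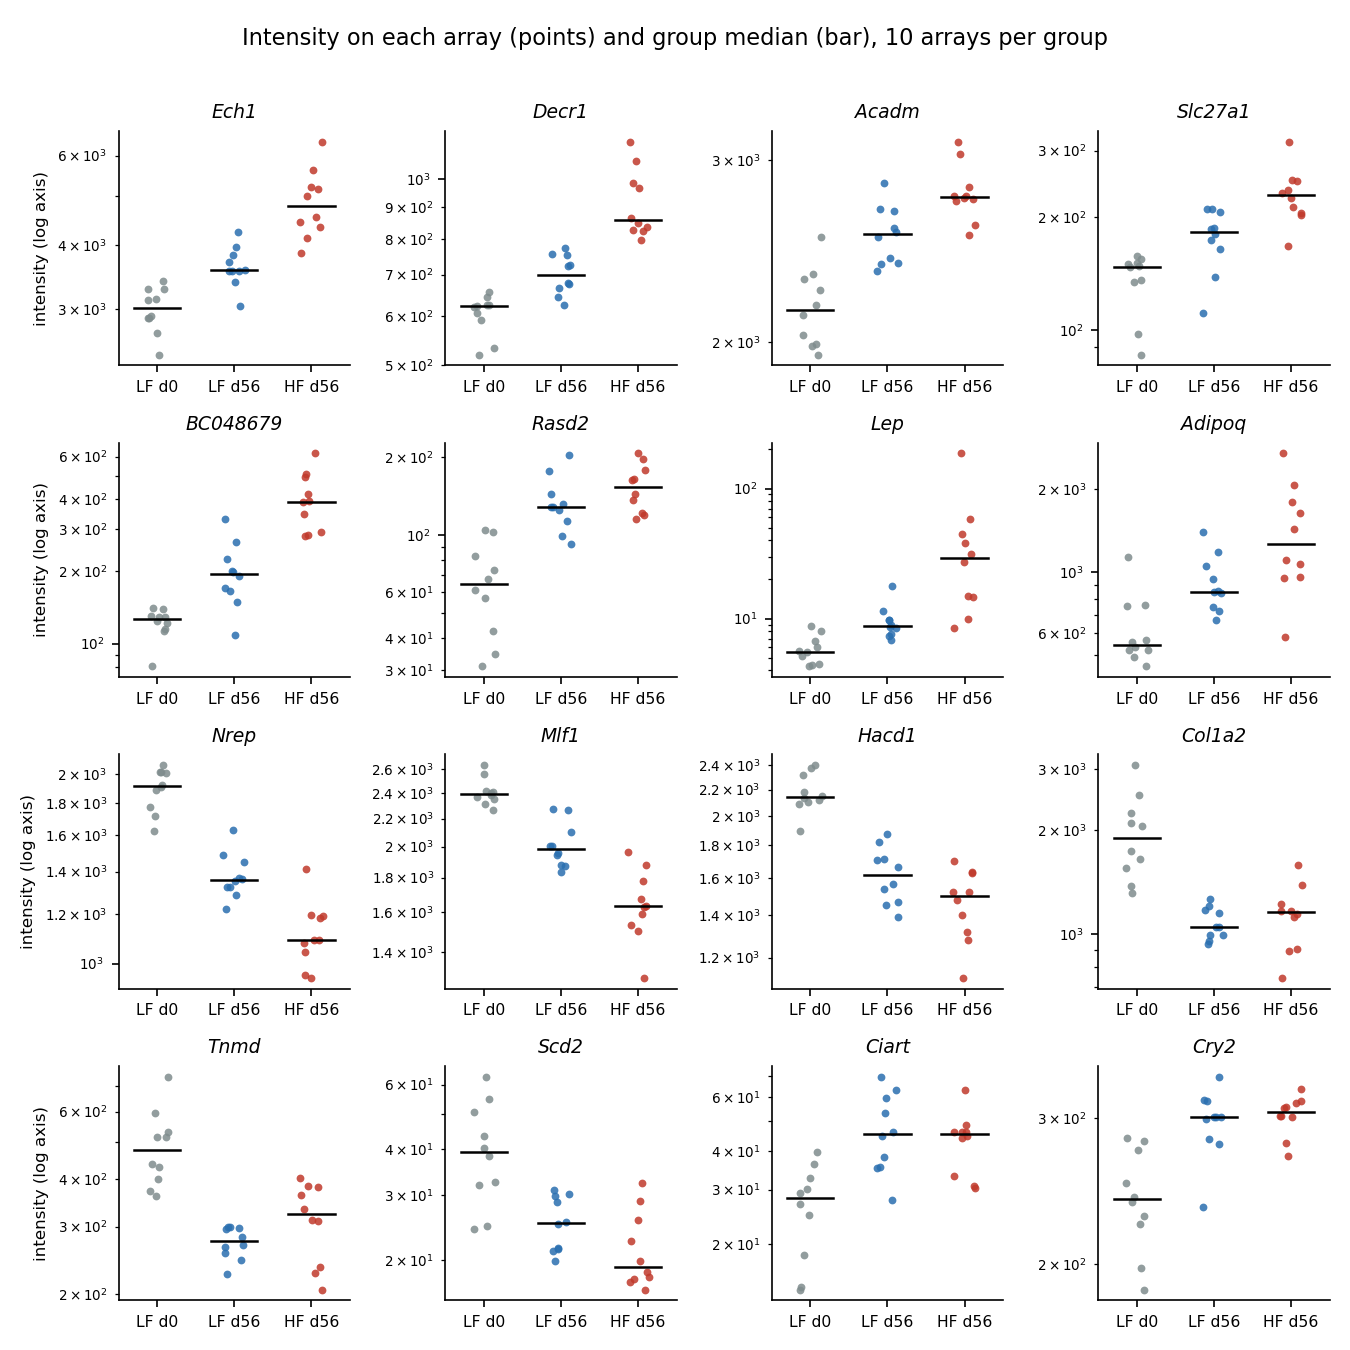
Intensity on a log axis for 16 genes, 1 point per array, in LF day 0, LF day 56 and HF day 56, with a bar at the group median. HF day 56 and LF day 0 points do not overlap for Ech1, Decr1, Acadm, Slc27a1, BC048679, Rasd2, Nrep, Mlf1 and Hacd1, while they overlap for the other 7 genes.

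Fatty acid uptake and storage rose in 5 of 25 measured genes and fell in 0 (20%), with a median of 0.23. Slc27a1, a fatty acid transport protein, ran from 86.1 to 158 (median 148) at day 0 and from 168 to 317 (median 228) at HF day 56. Its groups did not overlap, and it rose 1.69-fold (0.76 ± 0.12, adjusted p = 0.000222). Cd36, the fatty acid translocase, ran from 1238 to 1696 (median 1384) and from 1565 to 2239 (median 1879), with 8 of 10 HF day 56 arrays above every day 0 array (0.41 ± 0.07, adjusted p = 0.000506). Plin5, which coats the lipid droplets that contact mitochondria, ran from 166 to 279.5 (median 209) and from 223 to 534 (median 334). Most HF day 56 arrays were high, 8 of them beyond the day 0 range (0.66 ± 0.13, adjusted p = 0.00274). Dgat2, which completes triglyceride, rose by 0.65 ± 0.16, adjusted p = 0.0319, and no longer passed when replicate 1, 4, 5, 7 or 10 of day 0 or replicate 2, 6, 8 or 9 of HF day 56 was left out (adjusted p up to 0.0683). Cidec, a droplet protein of fat cells, is described with the fat cell genes. In peroxisomal oxidation, 1 of 17 genes passed (5.88%, against 1.59% over all entries). It was Hsd17b4, the multifunctional enzyme, which rose by 0.21 ± 0.04, adjusted p = 0.00479.

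Among 11 genes of fuel choice, 2 rose, Acot2 and Fbp2 (18.2%, against 1.59% over all entries). Fbp2, the muscle fructose-bisphosphatase, ran from 355 to 647 (median 448) at day 0 and from 556 to 787 (median 681) at HF day 56, with 8 HF day 56 arrays above every day 0 array (0.59 ± 0.10, adjusted p = 0.000313). Pdk4, the kinase that shuts pyruvate dehydrogenase, had medians of 9484 and 7974 and did not pass (-0.16 ± 0.08, adjusted p = 0.434, 95% interval -0.32 to 0.00). Ucp3, the mitochondrial carrier known to follow fatty acid supply, had a difference of -0.37 ± 0.26, adjusted p = 0.671 (interval -0.89 to 0.15). Both ranges overlapped.

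Insulin signalling and glucose uptake had 0 of 21 genes called, and glycolysis 0 of 20. Slc2a4, the insulin-responsive glucose transporter, ran from 1455 to 2295 (median 1694) and from 1336 to 2126 (median 1547), with a difference of -0.13 ± 0.12, adjusted p = 0.774 and a 95% interval of -0.38 to 0.11. The tricarboxylic acid cycle had 0 of 21 called, respiratory complexes II to V 0 of 33, branched-chain amino acid breakdown 0 of 21, and PPAR receptors with their coactivators 0 of 15. In complex I, 1 of 33 fell: Ndufc1, an accessory subunit, by 0.17 on the log2 scale (SE 0.04, adjusted p = 0.00976). Ppargc1a, the coactivator tied to mitochondrial growth, did not pass at -0.24 (interval -0.58 to 0.10). Leaving out replicates singly moved its value by up to 1.62 times. The medians of these lists lay between -0.04 and 0.03. Over all entries 1.59% were called. Counts of 0 or 1 in lists of this size lie near that share and do not show an absence of change.

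**Figure D3:**
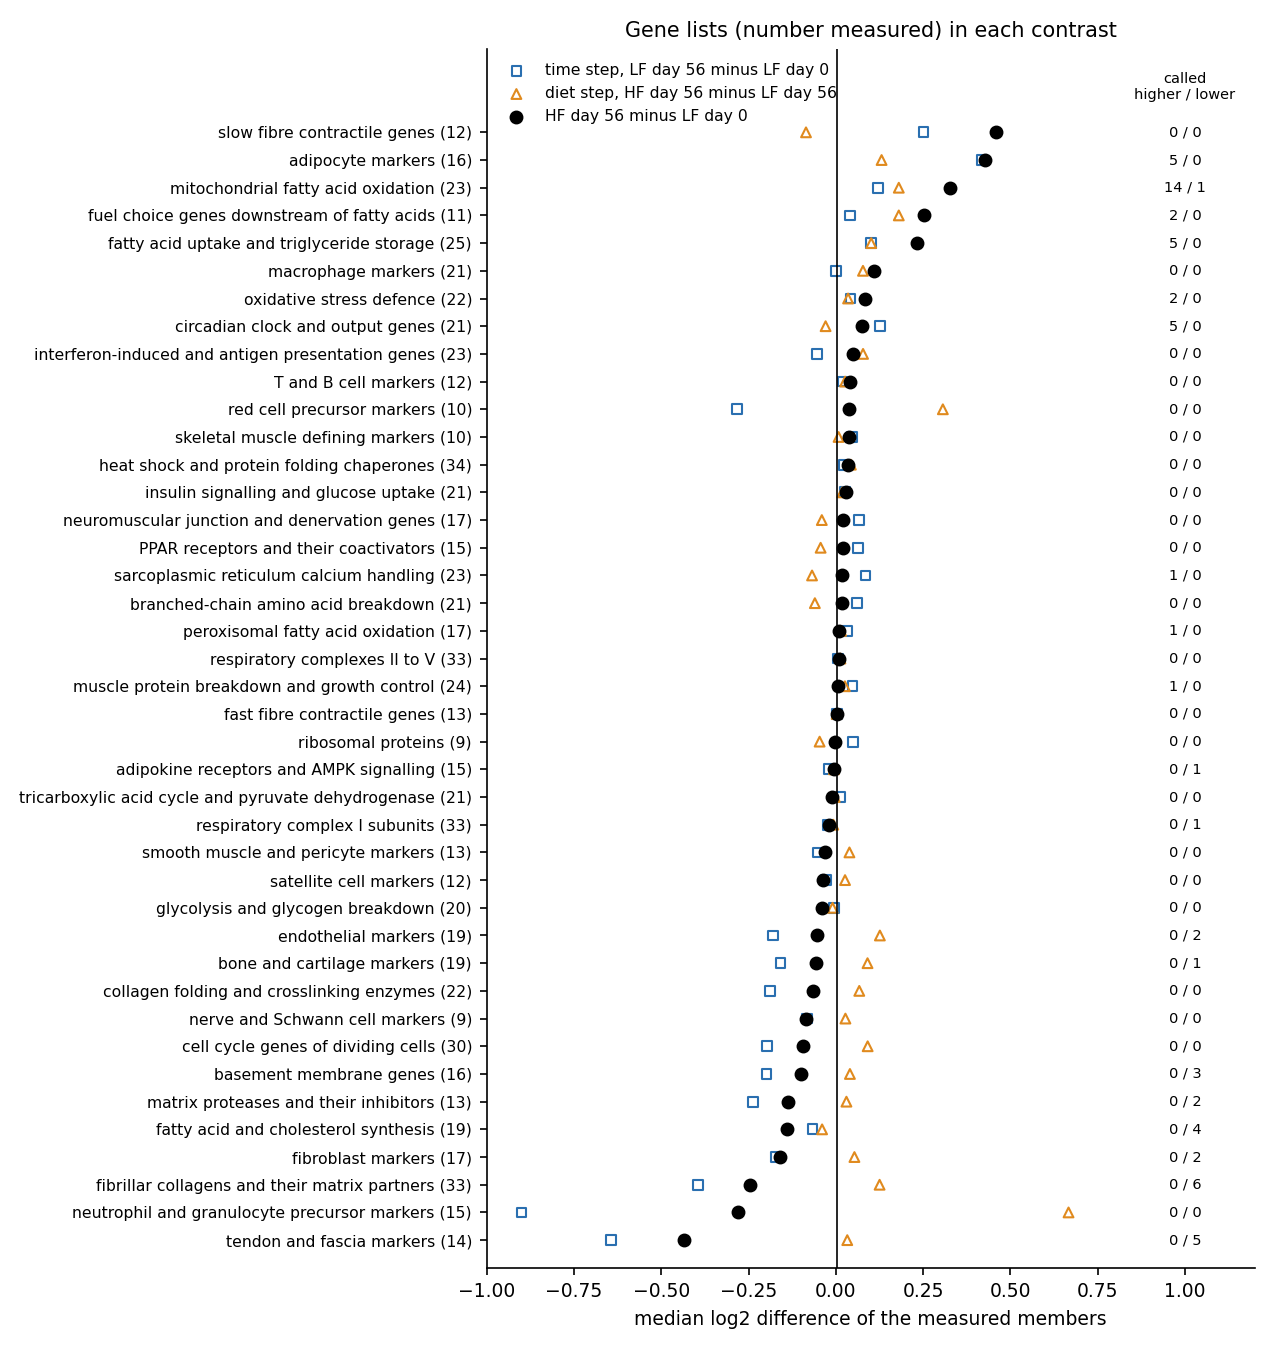
Median log2 difference of the measured members of 41 gene lists (number measured in parentheses), for HF day 56 minus LF day 0 (black) and its time (blue squares) and diet (orange triangles) steps; the line marks the median of all entries and the right column gives members called higher and lower. Mitochondrial fatty acid oxidation stands at 0.33 with 14 higher and 1 lower, and tendon markers at -0.44 with 0 higher and 5 lower.

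Fat cell products were among the largest rises. Of 16 measured fat cell markers, 5 rose and 0 fell (31.2%), with a median of 0.43. The list median was 0.42 for the time step and 0.13 for the diet step, with 0 members called in either step. Lep, the hormone leptin, ran from 4.3 to 8.8 (median 5.55) at day 0 and from 8.5 to 187 (median 29.3) at HF day 56; only the lowest HF day 56 array lay within the day 0 range. In the LF mice at day 56 Lep ran from 6.9 to 17.7. The difference between HF day 56 and day 0 was 2.28 ± 0.35, adjusted p = 0.000166. Yet day 0 was near background on all 10 arrays, and Lep exceeded 20 on 6 HF day 56 arrays. Adipoq, which encodes adiponectin, ran from 456 to 1139 (median 547) and from 584 to 2701 (median 1272). The groups overlapped, with 5 HF day 56 arrays above every day 0 array and a rise of 2.16-fold (1.11 ± 0.20, adjusted p = 0.00159). Cidec rose by 1.81 ± 0.34, adjusted p = 0.00254 and Nnat, neuronatin, by 1.75 ± 0.32, adjusted p = 0.00176. Retn, which encodes resistin, rose by 0.82 ± 0.21, adjusted p = 0.0384, and no longer passed when replicate 2, 3, 4, 5, 7 or 10 of day 0 or replicate 4, 6, 8, 9 or 10 of HF day 56 was left out (adjusted p up to 0.086).

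The summed intensity of the 16 fat cell markers ran from 10016 to 15273 at day 0 and from 12859 to 18793 at HF day 56. Their mean log2 level was above the day 0 mean on 9 of 10 HF day 56 arrays. Fabp4, the abundant fatty acid binding protein, had medians of 5858 and 6574 (0.18 ± 0.07, adjusted p = 0.286), and Ucp1, of brown fat, stayed near background at medians of 4.0 and 3.95; both were named after their values were seen. With the fat cell list mean as a covariate, 62 entries passed, 53 of them among the 262. Mitochondrial fatty acid oxidation then kept a median of 0.33 with 7 called members, and uptake and storage had 2 called members and a median of 0.08. Cidec belongs to both the fat cell list and the uptake and storage list. The covariate thus contains part of the list it adjusts, and the lower values there are no test of fat cell content. Ech1 was 0.70 (adjusted p = 0.000158), Decr1 0.59 (adjusted p = 0.000133), Slc27a1 0.66 (adjusted p = 0.0421) and Cd36 0.35 (adjusted p = 0.0696) in that fit.

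Other large rises were in genes outside the fat cell list, of varied roles. BC048679, a gene known by its clone name, ran from 80.5 to 140.2 (median 126) at day 0 and from 279 to 619 (median 389) at HF day 56. The ranges lay far apart, the rise was 3.21-fold (1.68 ± 0.16, adjusted p = 3.81e-08), and the diet step alone was 1.02 (adjusted p = 0.00435). Tmem45b, a membrane protein, ran from 10.3 to 30.7 (median 15.9) and from 24.2 to 214 (median 71.8) and rose by 2.20 ± 0.31, adjusted p = 3.75e-05. Rasd2, a small GTPase, ran from 31 to 105 (median 64.4) and from 115 to 208 (median 154). Its groups did not overlap (1.32 ± 0.19, adjusted p = 4.58e-05). In the LF mice at day 56 Rasd2 ran from 92.3 to 205.3, which overlaps HF day 56. Sncg, gamma-synuclein, rose by 1.37 ± 0.21, adjusted p = 0.000122, and Hp, haptoglobin, by 1.66 ± 0.39, adjusted p = 0.0168. The Hp range at HF day 56 was wide, 13.6 to 514 (median 80.2), against 11.5 to 52.7 (median 25.2) at day 0. Cd1d1, which presents lipids to T cells, rose by 1.09 ± 0.25, adjusted p = 0.0138, from 0 day 0 arrays above 20 to 6 HF day 56 arrays above it.

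Tmem45b, Sncg, Hp and Cd1d1 were each highest on replicate 9 of HF day 56. Of the called fat cell markers, Lep, Adipoq, Cidec and Retn were also highest on that array. Nnat was highest on replicate 10, at 220 against 99.8 on replicate 9. With the fat cell list mean as a covariate, Hp was 0.75 (adjusted p = 0.714), Cd1d1 0.30 (adjusted p = 0.825) and Sncg 0.74 (adjusted p = 0.0938), so these 3 no longer passed. Tmem45b was 1.04 (adjusted p = 0.012) in that fit and still passed. The part of fat cells in these rises was not tested. Ighg2c, an antibody heavy chain, rose by 1.44 ± 0.27, adjusted p = 0.00247. It exceeded 20 on 2 day 0 arrays and on all 10 HF day 56 arrays, and ran from 13.9 to 32.1 in LF day 56. Of the 12 T and B cell markers measured, 1 exceeded 20 on at least 5 of the 20 arrays, so this list says little beside it.

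Some rises had a larger time step than diet step. Dkk3, a secreted protein of the Dickkopf family, rose by 1.15 ± 0.20, adjusted p = 0.000828, with a time step of 1.41 and a diet step of -0.27. Mfsd4a, a transporter of the major facilitator family, ran from 28.3 to 60.8 (median 44.3) at day 0 and from 72.2 to 96.1 (median 79.9) at HF day 56, without overlap. Its time step was 0.74 and its diet step 0.13. Amy1, an amylase, ran from 372 to 480.1 (median 416) and from 520.3 to 648 (median 618), also without overlap, with steps of 0.53 and 0.01. Sln, sarcolipin, which binds the calcium pump, rose by 1.16 ± 0.29, adjusted p = 0.0319. It was the 1 called gene among 23 of calcium handling (4.35%, against 1.59% over all entries). It was near background at day 0 (median 5.4), exceeded 20 on 2 HF day 56 arrays, and no longer passed when replicate 1, 2, 5 or 6 of day 0 or replicate 2, 3, 4 or 8 of HF day 56 was left out (adjusted p up to 0.0709).

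**Figure D4:**
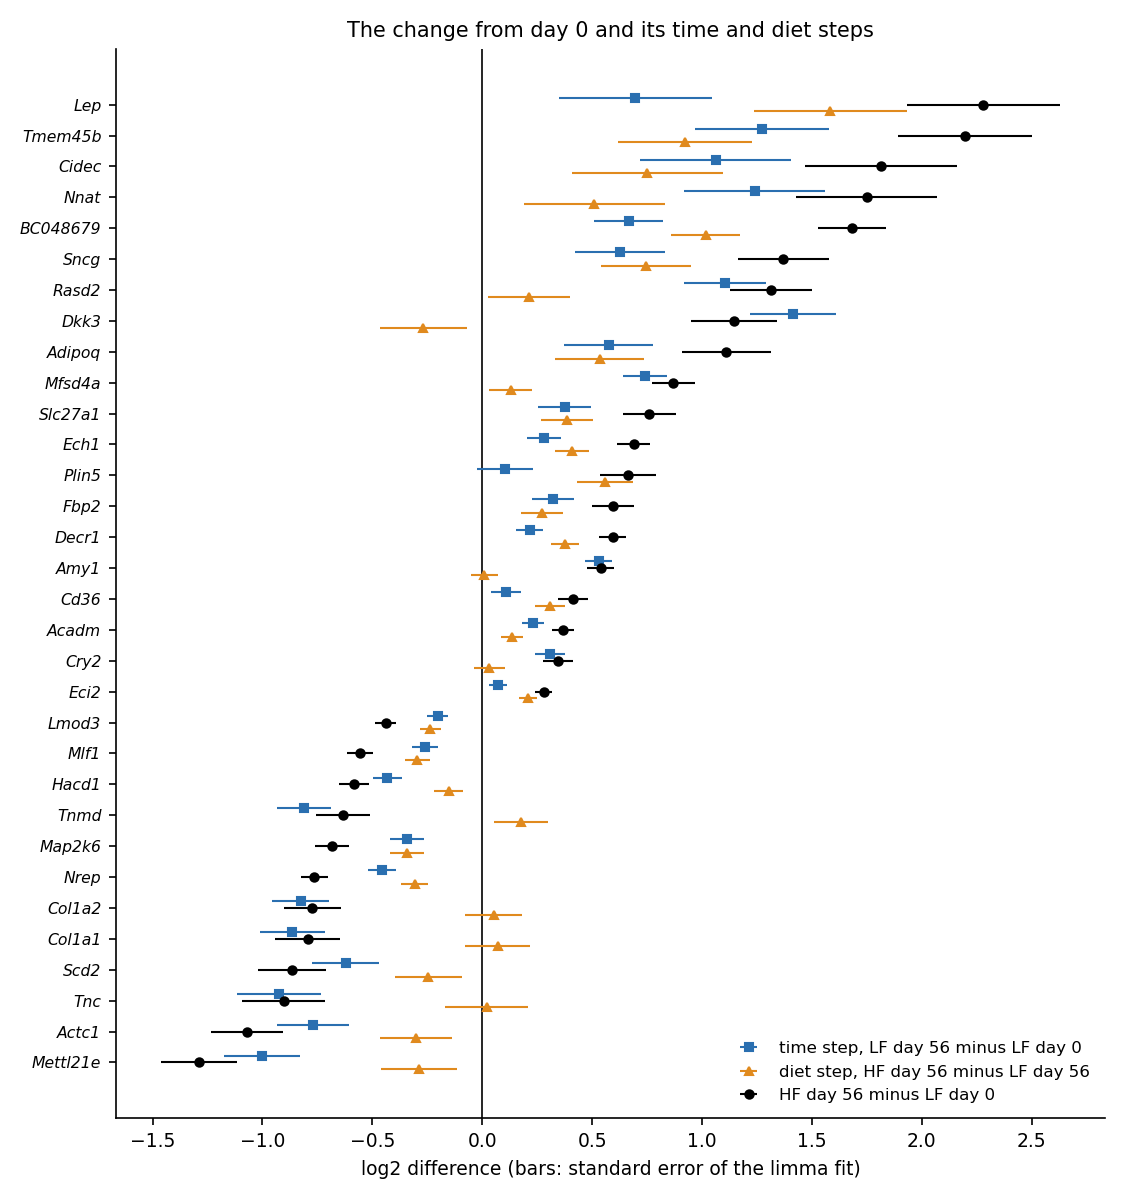
Log2 differences for 32 genes, with the standard error of the limma fit as bars: HF day 56 minus LF day 0 (black circles), the time step (blue squares) and the diet step (orange triangles). Decr1 and Ech1 have diet steps of 0.38 and 0.41, while Amy1, Dkk3, Col1a1 and Col1a2 have diet steps between -0.27 and 0.07.

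Genes of the clock rose in 5 of 21 measured cases and fell in 0 (23.8%), with a median of 0.07. Cry2, a repressor of the clock, ran from 186 to 284 (median 239) at day 0 and from 270.5 to 325 (median 306) at HF day 56, with 8 HF day 56 arrays above every day 0 array (0.34 ± 0.07, adjusted p = 0.00404). Bhlhe40, a repressor that competes for E-boxes, rose by 0.30 ± 0.07, adjusted p = 0.0187. Ciart, a repressor whose promoter with 3 E-boxes is printed above, ran from 14.2 to 39.6 (median 28.1) and from 30.4 to 63.2 (median 45.4). Its ranges overlapped in the day 0 high and HF day 56 low arrays, and it rose by 0.75 ± 0.18, adjusted p = 0.0257. Dbp, an output transcription factor, rose by 0.45 ± 0.11, adjusted p = 0.029, and Per2, a period gene, by 0.59 ± 0.16, adjusted p = 0.0459, below an intensity of 20 on all 20 arrays. The diet steps of these 5 genes ran from -0.10 to 0.09, and the hour of death is not given in the sources used here. Ciart no longer passed when replicate 1, 3 or 6 of day 0 or replicate 1 of HF day 56 was left out (adjusted p up to 0.0578), Dbp when replicate 3 or 6 of day 0 or replicate 1, 2, 4, 7 or 10 of HF day 56 was left out (adjusted p up to 0.0564), and Per2 when replicate 1, 2, 3, 6, 7, 8 or 10 of day 0 or replicate 1, 2, 3, 4, 6, 7, 9 or 10 of HF day 56 was left out (adjusted p up to 0.0921); the list then had 2 to 5 called members. Within the 21 arrays 1 member passed, and with the fat cell list mean as a covariate 0 passed.

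Fibrillar collagens and their matrix partners fell in 6 of 33 genes and rose in 0 (18.2%), with a median of -0.25. Col1a2, a chain of type I collagen, ran from 1315 to 3081 (median 1891) at day 0 and from 746 to 1581 (median 1154) at HF day 56. The groups overlapped, with 8 HF day 56 arrays below every day 0 array, and day 0 was 1.71-fold higher (-0.77 ± 0.13, adjusted p = 0.000563). Col1a1, the other chain, ran from 837 to 2328 (median 1463) and from 508 to 1195 (median 793), with all 10 HF day 56 arrays below the day 0 mean (-0.79 ± 0.15, adjusted p = 0.00202). Col3a1 (-0.48 ± 0.10, adjusted p = 0.0043), Col5a2 (-0.60 ± 0.12, adjusted p = 0.00475) and Col6a3 (-0.42 ± 0.10, adjusted p = 0.0182) fell as well. Eln, the gene of elastin, was at or below 10.1 on all 20 arrays; its difference was -0.36, which did not pass when replicate 1, 2, 3, 5, 6, 8 or 10 of day 0 or replicate 1, 2, 3, 5, 6, 7 or 8 of HF day 56 was left out (adjusted p up to 0.0838). The median was -0.40 for the time step and 0.13 for the diet step. With the fat cell list mean as a covariate 3 members passed. Within the 21 arrays 0 passed, Col1a2 among them at -0.73 (adjusted p = 0.0538).

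Tendon and fascia markers fell in 5 of 14 genes (35.7%), and all 14 had negative differences, with a median of -0.44. The list median was -0.64 for the time step, with 7 members called, and 0.03 for the diet step, with 0 called. Tnmd, tenomodulin, ran from 360.3 to 741 (median 475) at day 0 and from 205 to 402 (median 324) at HF day 56; 6 HF day 56 arrays were below every day 0 array (-0.63 ± 0.12, adjusted p = 0.00311). Kera, keratocan, ran from 152 to 361 (median 189.8) and from 70.4 to 208 (median 102) (-0.86 ± 0.18, adjusted p = 0.00637). Tnc, tenascin C, ran from 41 to 99.3 (median 57.6) and from 19.4 to 59.7 (median 31.1) (-0.90 ± 0.19, adjusted p = 0.00688). In both, HF day 56 was mostly low and the ranges overlapped. Thbs4, a matrix glycoprotein, fell (-0.42 ± 0.09, adjusted p = 0.00475), and Fmod, fibromodulin, fell (-0.45 ± 0.11, adjusted p = 0.0311) but did not pass when replicate 1, 3 or 9 of day 0 or replicate 3, 4, 6, 7, 9 or 10 of HF day 56 was left out (adjusted p up to 0.071). The list mean was below the day 0 mean on all 10 HF day 56 arrays, and the list sum ran from 4035 to 5830 at day 0 and from 2756 to 4313 at HF day 56. Within the 21 arrays, and with the fat cell list mean as a covariate, 0 tendon markers passed.

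Bone and cartilage genes were read beside collagen and tendon. Of 19 measured, 1 fell (5.26%, against 1.59% over all entries) and 18 did not pass. The 1 was Ctsk, cathepsin K, which the matrix protease list also holds. The list median was -0.06, with 7 positive and 12 negative differences. The list sum ran from 306 to 914 at day 0 and from 173 to 613 at HF day 56, and the list mean exceeded the day 0 average on 2 of 10 HF day 56 arrays. Ibsp, bone sialoprotein, exceeded 20 on 6 day 0 and 0 HF day 56 arrays (-1.74 ± 0.49, adjusted p = 0.0688), and Col2a1, the cartilage collagen, had a difference of -1.50 ± 0.45, adjusted p = 0.094. Both passed when replicate 1, 5 or 8 of day 0 was left out, with Ibsp between -2.01 and -1.98 and Col2a1 between -1.74 and -1.73. Those are the 3 day 0 arrays with S100a8 not above 100, and Ibsp was 4.2, 4.9 and 4.4 on them. Without the arrays with S100a8 above 100, Ibsp was -0.31 (adjusted p = 0.555) and Col2a1 -0.098 (adjusted p = 0.913) in limma. Sp7, Acan and Sox9, also defining genes and named after their values were seen, were near background in both groups. Fibroblast markers lay lower too: 16 of 17 had negative differences, with a median of -0.16, 2 passed, namely Col1a1 and Col3a1, which the collagen list also holds, and the list mean exceeded the day 0 mean on 1 of 10 HF day 56 arrays. The sum of the fibroblast list ran from 16579 to 23256 at day 0 and from 15205 to 20061 at HF day 56. With the bone and cartilage list mean as a covariate, 4 collagen genes and 3 tendon markers passed. The part of fibroblasts, bone, cartilage or tendon tissue in the collagen result was not tested.

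Other matrix genes fell in smaller number. The called share was 18.8% in the basement membrane list, 15.4% among matrix proteases and inhibitors and 10.5% among endothelial markers. Over all entries it was 1.59%, and these shares rest on 2 or 3 genes each. In the basement membrane, 3 of 16 fell: Lama2, the laminin chain of muscle (-0.34 ± 0.07, adjusted p = 0.00645), Lamb1 (-0.31 ± 0.08, adjusted p = 0.0257) and Col4a1 (-0.34 ± 0.09, adjusted p = 0.0496). Lamb1 did not pass when replicate 1, 2 or 10 of day 0 or replicate 2 or 7 of HF day 56 was left out (adjusted p up to 0.0605), nor Col4a1 when replicate 1, 2, 3, 4, 5, 6 or 10 of day 0 or replicate 1, 2, 3, 5, 6, 7 or 8 of HF day 56 was left out (adjusted p up to 0.111). Among 13 matrix proteases and inhibitors, Mmp14, a membrane metalloprotease (-0.36 ± 0.09, adjusted p = 0.036), and Ctsk, cathepsin K (-0.64 ± 0.17, adjusted p = 0.0407), fell. Mmp14 did not pass when replicate 1, 2, 3, 6, 9 or 10 of day 0 or replicate 1, 2, 3 or 8 of HF day 56 was left out (adjusted p up to 0.0846), nor Ctsk when replicate 1, 2, 3, 7, 9 or 10 of day 0 or replicate 3, 4, 5, 7, 9 or 10 of HF day 56 was left out (adjusted p up to 0.0952). Collagen folding and crosslinking enzymes had 0 of 22 called. Of 19 endothelial markers, Cldn5, a tight junction protein (-0.71 ± 0.17, adjusted p = 0.0207), and Aplnr, the apelin receptor (-0.64 ± 0.14, adjusted p = 0.0104), fell, and the median was -0.05.

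**Figure D5:**
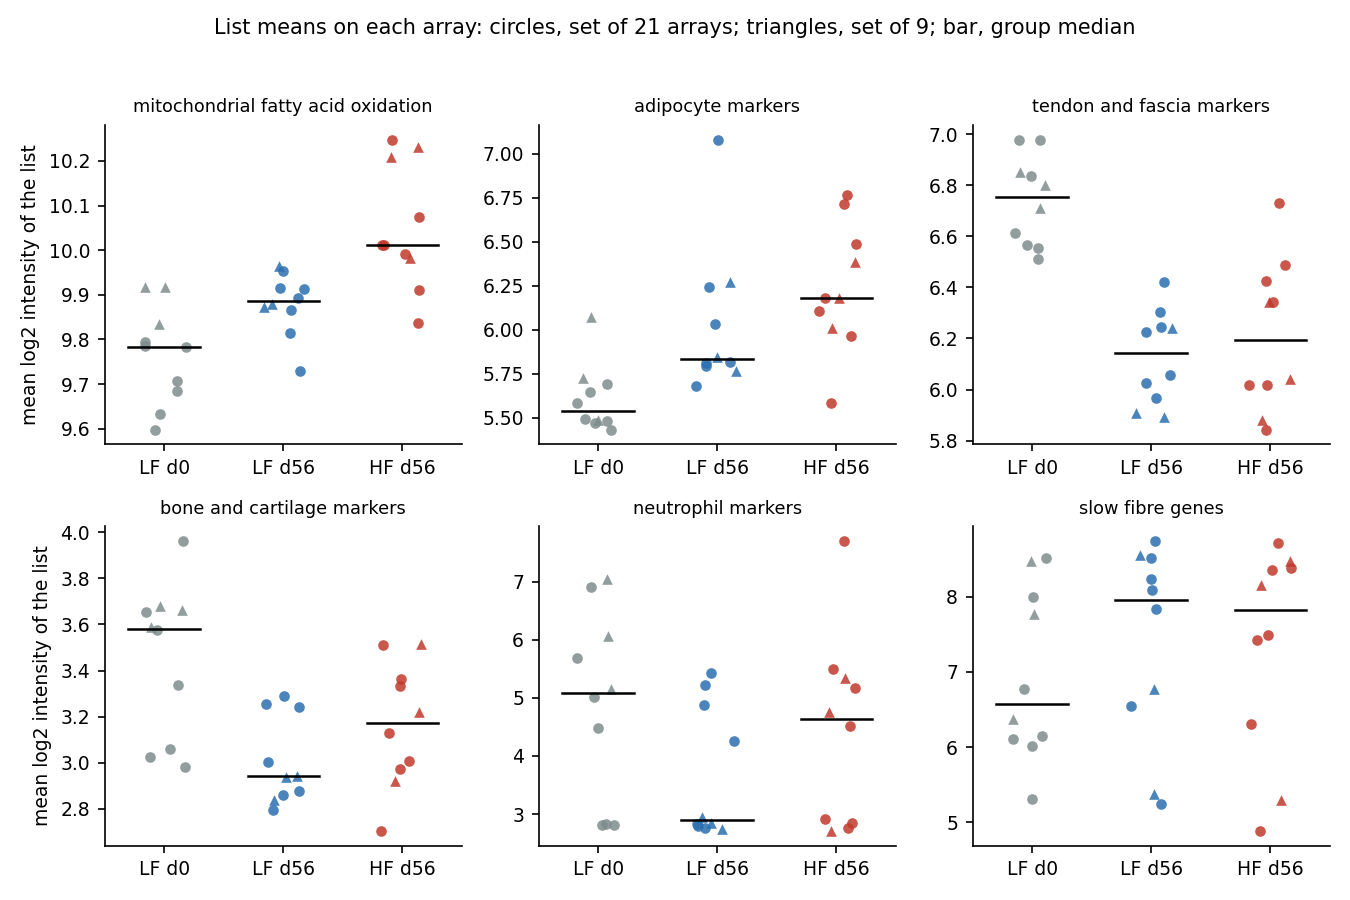
Mean log2 intensity of 6 gene lists on each array (y axis) in each group (x axis), circles for the set of 21 arrays, triangles for the set of 9, and a bar at the group median. The fatty acid oxidation mean is 9.60 to 9.92 at day 0 and 9.84 to 10.2 at HF day 56, and the neutrophil and slow fibre means spread widely within each group.

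Fatty acid and cholesterol synthesis fell in 4 of 19 genes and rose in 0 (21.1%), with a median of -0.14. Scd2, a desaturase, ran from 24.3 to 63.1 (median 39.3) at day 0 and from 16.6 to 32.3 (median 19.1) at HF day 56, with 7 HF day 56 arrays below every day 0 array (-0.87 ± 0.15, adjusted p = 0.00111). Srebf1, the transcription factor of lipid synthesis, ran from 276 to 419 (median 347) and from 196 to 362 (median 243) (-0.45 ± 0.10, adjusted p = 0.00692). Dhcr7 (-0.40 ± 0.08, adjusted p = 0.00675) and Cyp51 (-0.38 ± 0.09, adjusted p = 0.0239), of cholesterol synthesis, fell at low intensity, Cyp51 below 20 on all 20 arrays; Cyp51 did not pass when replicate 2 or 6 of HF day 56 was left out (adjusted p up to 0.0541). Fasn, fatty acid synthase, named after its values were seen, had medians of 100 and 49.2 and did not pass (-0.84 ± 0.30, adjusted p = 0.199). With the fat cell list mean as a covariate Fasn was -1.95 (adjusted p = 3.69e-06) and passed. In that fit 4 members of the list passed, none of them the 4 above. The covariate itself differed between the groups compared, with medians of 5.54 and 6.18. Replicate 6 of LF day 56, also in the fit, had the highest fat cell list mean (7.08) and a Fasn intensity of 642.1. The part of fat cells in the Fasn value was not tested. Within the 21 arrays 1 of the 19 passed.

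Several genes outside these lists fell without overlap. Nrep, a small regulatory protein, had the smallest p: it ran from 1624 to 2069 (median 1918) at day 0 and from 949 to 1416 (median 1092) at HF day 56 (-0.76 ± 0.06, adjusted p = 3.77e-09). Mlf1, myeloid leukemia factor 1, ran from 2263 to 2638 (median 2391) and from 1282 to 1966 (median 1633) (-0.56 ± 0.06, adjusted p = 5.05e-07). Lmod3, the leiomodin that builds thin filaments, ran from 1225 to 1525 (median 1392) and from 940.2 to 1186 (median 997) (-0.44 ± 0.05, adjusted p = 8.42e-07). In these 3 genes the highest HF day 56 array was below the lowest day 0 array. Hacd1, an enzyme of very long chain fatty acid elongation, fell (-0.58 ± 0.07, adjusted p = 1.47e-06), as did Map2k6, a kinase upstream of p38 (-0.68 ± 0.08, adjusted p = 1.33e-06), and Mettl21e, a muscle lysine methyltransferase (-1.29 ± 0.17, adjusted p = 2.75e-05). Mettl21e exceeded 20 on 5 day 0 arrays and 0 HF day 56 arrays.

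Actc1, the cardiac actin also made in developing muscle, ran from 2802 to 8531 (median 7116) at day 0 and from 2355 to 4011 (median 3017) at HF day 56. The groups overlapped through low day 0 arrays, and all 10 HF day 56 arrays were below the day 0 mean (-1.07 ± 0.16, adjusted p = 0.000166). Kcng4, a modifying subunit of potassium channels (-0.73 ± 0.12, adjusted p = 0.000263), and Wif1, a secreted Wnt inhibitor (-1.07 ± 0.24, adjusted p = 0.0148), fell too. The time and diet steps were -0.46 and -0.31 for Nrep, -0.26 and -0.30 for Mlf1, -0.20 and -0.24 for Lmod3, and -0.77 and -0.30 for Actc1. All of these diet steps missed the threshold (adjusted p of 0.0693, 0.0606, 0.0693 and 0.992). On the arrays with S100a8 not above 100, Nrep (-0.74, adjusted p = 0.0199), Actc1 (-1.42, adjusted p = 0.00143), BC048679 (1.26, adjusted p = 0.0406) and Ighg2c (1.88, adjusted p = 0.0169) passed.

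Of the 32 entries without overlap, 15 were higher and 17 lower (0.091% and 0.103% of all entries). Beyond those above, they included genes named after their values were seen. Slc25a28, the mitochondrial iron carrier mitoferrin 2, rose from medians of 231 to 303 (0.42 ± 0.06, adjusted p = 2.93e-05). Aldh1a1, which oxidises retinal, rose (0.42 ± 0.06, adjusted p = 2.75e-05), and so did Slc6a6, the taurine transporter (0.35 ± 0.06, adjusted p = 0.000977), and Maob, monoamine oxidase B (0.38 ± 0.08, adjusted p = 0.00692). Npr3, the clearance receptor of natriuretic peptides, rose at low intensity, from 5.9 to 8.3 (median 6.95) and from 9.1 to 23 (median 12.8) (0.87 ± 0.12, adjusted p = 4.48e-05). Reep6 also rose at low intensity (0.63 ± 0.09, adjusted p = 3.64e-05), above 20 on 0 day 0 arrays and 1 HF day 56 array, and Rftn1, Klhl23 and Tppp3 fell, with differences of -0.67, -0.65 and -0.60. For Rftn1, Klhl23, Tppp3, Slc25a28 and Maob the diet step lay between -0.08 and 0.03.

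In other lists few genes moved. Of 22 oxidative stress genes, Nqo1, a quinone reductase (0.31 ± 0.08, adjusted p = 0.0267), and Gpx3, the secreted glutathione peroxidase (0.40 ± 0.10, adjusted p = 0.0363), rose. Nqo1 did not pass when replicate 3, 6 or 8 of day 0 or replicate 2 or 4 of HF day 56 was left out (adjusted p up to 0.0619), nor Gpx3 when replicate 1, 2, 4, 7 or 10 of day 0 or replicate 5, 6, 7 or 10 of HF day 56 was left out (adjusted p up to 0.0778). Of 24 genes of muscle protein breakdown and growth control, Fbxo21, a ubiquitin ligase subunit, rose near background (0.32 ± 0.08, adjusted p = 0.0177), above 20 on 0 day 0 arrays and 7 HF day 56 arrays; it was 0.21 (adjusted p = 0.536) with the fat cell covariate. Prkag2, a subunit of AMPK, fell as 1 of 15 adipokine receptor and AMPK genes (-0.35 ± 0.08, adjusted p = 0.0207). Macrophage markers had 0 of 21 called, interferon and antigen presentation genes 0 of 23, chaperones 0 of 34, and cell cycle genes 0 of 30. With 1.59% called over all entries, counts of 0 in lists of this size lie near that share.

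Fibre type and granulocyte genes spread widely within each group. Myh7, the slow myosin, ran from 5.7 to 598 (median 24.9) at day 0 and from 4.9 to 396 (median 159.7) at HF day 56, with full overlap and no call (0.87 ± 1.11, adjusted p = 0.869). The slow fibre list had 0 of 12 called and a median of 0.46, and the fast fibre list 0 of 13 and 0.00. S100a8 ran from 5.5 to 3809 (median 846) and from 5.7 to 4031 (median 556) (-1.01 ± 1.56, adjusted p = 0.904). Leaving out single arrays moved the Myh7 value by up to 1.61 times and that of S100a8 by up to 2.05 times. The 15 neutrophil markers had 0 called, and their sum ran from 695 to 11194 at day 0 and from 529 to 14782 at HF day 56.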

How the data were processed

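RNA was labelled with biotin and hybridised to Affymetrix arrays, 1 mouse per array. The deposited values are linear intensities that the authors normalized with GCRMA, per the submitters' processing notes; its version is not given in the sources used here. GCRMA subtracts probe background, so low intensities hold little information. The 64 control entries were left out, and 16475 gene entries were tested, 15780 with 1 symbol, 695 without. Log2 intensities, with no pseudocount, of all 30 arrays were fitted in limma 3.58.1 (R 4.3.3), group as the only factor, with Benjamini-Hochberg adjustment over all entries; the code was tested on simulated data. Array number limits the precision. Members and lists were chosen with earlier results of these data known. Named genes are the 12 largest rises and falls and the 5 of smallest p among passing entries with an intensity above 20 on at least 5 of 20 arrays, up to 4 passing members per list, and 16 fixed genes; 30 more, and the further list members the text marks, were named after their values were seen, among them list members beyond the 4. Replicate numbers recur in the groups, but each array holds a different mouse, and the main fit pairs no arrays. Alternatives were other scalings, filters, fits, covariates and array subsets. Promoters are from RefSeq (GRCm38.p6); the AGGTCA search was added later. Figures were drawn with matplotlib 3.10.9.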

Additional observations from a re-analysis of the deposited data

Results flagged for a closer look

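Single arrays stood apart in a group for 13 of the 282 group values examined, while chance would mark about 1 in 20. At day 0, replicate 6 was high in Cidec (intensity 71.1), Nnat (59.2), Fasn (178.2) and the mean log2 level of the fat cell list (6.07). Also at day 0, replicate 9 was low in BC048679 (80.5), replicate 10 low in Fbxo21 (15.8) and replicate 7 low in the macrophage list (mean log2 level 3.70). At HF day 56, replicate 5 was low in Amy1 (520.3), replicate 8 low in Dbp (703.4), replicate 7 high in Lmod3 (1186.4) and replicate 9 high in Npr3 (23.0). In the same group, replicate 10 was low in the neuromuscular list (mean log2 level 4.11) and replicate 6 high in the T and B cell list (2.82).

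The change from day 0 differed between HF and LF mice in 4 entries by limma's test of the difference. It was larger on HF by 1.02 for BC048679 (adjusted p = 0.00435), by 0.38 for Decr1 (adjusted p = 0.00954), by 0.41 for Ech1 (adjusted p = 0.0383) and by 0.21 for Eci2 (adjusted p = 0.0383). With each of the 30 arrays left out in turn, BC048679 and Decr1 passed 30 times (adjusted p up to 0.0157 and 0.0328). The test for Ech1 was lost when replicate 5, 6 or 8 of day 0 or replicate 1, 2, 3, 5, 6, 7, 9 or 10 of the LF mice at day 56 or replicate 2, 4, 6 or 8 of HF day 56 was left out (adjusted p up to 0.109), and that for Eci2 when replicate 4, 5, 6, 7 or 8 of day 0 or replicate 1, 2, 3, 4, 5, 6, 7, 9 or 10 of the LF mice at day 56 or replicate 2, 4, 6, 8 or 10 of HF day 56 was left out (adjusted p up to 0.109).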

How the results depend on the processing

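The 262 calls (129 higher, 133 lower) became 121 (53 and 68) at a threshold of 0.01, 134 (79 and 55) within the 21 arrays, 0 within the 9 arrays (1323 with an unadjusted p under 0.05), 62 (30 and 32) with the fat cell list mean as a covariate and 6 (2 and 4) without the arrays with S100a8 above 100, where 1227 had an unadjusted p under 0.05. The lower calls rose to 207 with the set of 21 or 9 arrays as a block. Leaving out single arrays gave 214 to 271 calls, 101 to 136 higher and 110 to 142 lower. With the 2 groups alone, other scalings, the low intensity filter, array weights or a pseudocount of 16, the counts lay within 1.5 times of 262. The replicate number as a block gave 209 calls. Of the same-numbered pairs of arrays 3 of 10 correlated over 0.1, a cut that cannot decide on pairing. Each array holds a different mouse, so a shared number does not mark the same mouse.

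Of the 87 named genes that passed, 53 also passed within the 21 arrays, 0 within the 9 arrays, 34 with the fat cell covariate and 4 without the arrays with S100a8 above 100, and none of the 87 changed direction in the alternatives run. Values that changed sign were all uncalled. S100a8 was 0.064 within the 21 arrays, 0.088 with the neutrophil covariate, 2.51 with the bone and cartilage covariate and 0.20 without the arrays above 100. In that last setting Myh7 was -0.66, Ppargc1a 0.16 and Slc2a4 0.056. Myh7 was -0.76 within the 9 arrays, and Comp 0.13 with the bone and cartilage covariate. The cause of these shifts was not tested; the subsets have fewer arrays. Signal near background limits 51 of the 262 calls, which did not exceed 20 on at least 5 arrays. Leaving out LF day 56 arrays for the diet step was chosen after seeing the data.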
